A study of Mus musculus with 3 samples.

Results

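The 10 genes described here make and load the peptide-presenting molecules of major histocompatibility complex (MHC) class I, and they were followed in Lineage-KIT+ cells of newborn mouse liver. They were taken by symbol from the 32285 gene rows of each deposited matrix, and all 10 were found: H2-K1, H2-D1, H2-T22, H2-T23, B2m, Tap1, Tap2, Tapbp, Psmb8 and Psmb9. At birth the liver still holds blood progenitors, and sorting for cells without lineage markers and with the receptor KIT enriches them. The study profiled such cells by CITE-seq, droplet sequencing of RNA together with antibody tags, at postnatal day 0 in 3 libraries. One library came from MLL::ENL; Skida1-deleted mice, 1 from MLL::ENL mice and 1 from Control mice; MLL::ENL is a leukaemia-associated fusion of the genes for MLL and ENL. Both fusion libraries therefore carry MLL::ENL, and the first comparison asks what deletion of Skida1 adds to it. The promoter driving the fusion, the cells in which Skida1 was deleted, the strain and H2 haplotype of each library, the genotype of Control mice beyond that name and the number of pooled mice are not stated in any source at hand. With 1 library per group no difference has a replicate check and no test was made. All brackets are 95% intervals for counting error only, so mouse, library and genotype cannot be told apart.

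MHC class I molecules show peptides from inside the cell to T cells and natural killer cells. The heavy chain, encoded in the H2 complex, pairs with beta-2-microglobulin (B2m). Its peptides are cut by immunoproteasomes, which carry the subunits Psmb8 and Psmb9, carried into the endoplasmic reticulum by the transporter Tap1-Tap2, and loaded with the help of tapasin (Tapbp). H2-K1 and H2-D1 encode the classical heavy chains. H2-T23 encodes Qa-1, a nonclassical heavy chain read by the inhibitory receptor CD94-NKG2A, and H2-T22 encodes a nonclassical molecule seen by some gamma-delta T cells. Haematopoietic stem cells are known to carry more class I than erythroid precursors, which lose it as they mature.

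Most of these genes lie together. In GRCm38.p6, the build that matches the mm10 named in the submitters' processing notes, 9 of them are on chromosome 17, from Tapbp at chr17:33919478-33929290 to H2-T22 at chr17:36037128-36042742, and B2m is at chr2:122147687-122153082. The bases just upstream of the start are shown for the 4 heavy chains, B2m and the shared interval of Psmb9 and Tap1, because the heavy chains did not move alike in the data below. RefSeq gave a promoter entry for 9 of the 10 genes, and Tap2 had none. Each heavy chain and B2m is given as the 250 bases before its start, read 5′ to 3′ on the gene's own strand. For H2-K1 RefSeq lists more than 1 start, and the one used here lies inside the outermost bounds of the gene, chr17:33996012-34000619, so its window overlaps them. Capitals mark matches, on either strand, to an 11-base palindromic kappa-B sequence of the enhancer A type (in H2-K1 and H2-D1), a 10-base form of the interferon-stimulated response element whose 2 middle bases were free (in H2-T23, H2-T22 and B2m), the TGACG core of CRE-type sites and the CCAAT box. The regions are chr17:34000348-34000597 (minus strand) for H2-K1, chr17:35262844-35263093 (plus) for H2-D1, chr17:36032702-36032951 (minus) for H2-T23, chr17:36042743-36042992 (minus) for H2-T22 and chr2:122147437-122147686 (plus) for B2m.
H2-K1: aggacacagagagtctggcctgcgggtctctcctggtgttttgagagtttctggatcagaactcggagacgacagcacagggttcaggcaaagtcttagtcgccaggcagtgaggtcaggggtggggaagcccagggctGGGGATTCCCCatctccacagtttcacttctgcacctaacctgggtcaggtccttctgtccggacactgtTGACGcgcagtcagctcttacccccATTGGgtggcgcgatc
H2-D1: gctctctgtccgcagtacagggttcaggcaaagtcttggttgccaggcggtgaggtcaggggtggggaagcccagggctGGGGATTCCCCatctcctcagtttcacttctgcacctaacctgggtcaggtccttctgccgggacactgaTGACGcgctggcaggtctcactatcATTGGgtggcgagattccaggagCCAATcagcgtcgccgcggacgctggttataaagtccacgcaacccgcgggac
H2-T23: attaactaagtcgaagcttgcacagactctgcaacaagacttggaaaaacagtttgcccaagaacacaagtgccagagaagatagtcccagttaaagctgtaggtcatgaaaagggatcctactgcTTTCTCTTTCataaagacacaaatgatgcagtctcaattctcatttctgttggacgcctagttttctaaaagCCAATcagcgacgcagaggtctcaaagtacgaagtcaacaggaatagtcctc
H2-T22: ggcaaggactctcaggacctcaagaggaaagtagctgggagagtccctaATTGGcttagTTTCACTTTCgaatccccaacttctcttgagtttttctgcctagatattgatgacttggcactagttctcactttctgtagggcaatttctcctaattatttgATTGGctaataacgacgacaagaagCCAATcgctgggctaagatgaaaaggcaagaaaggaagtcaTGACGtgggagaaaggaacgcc
B2m: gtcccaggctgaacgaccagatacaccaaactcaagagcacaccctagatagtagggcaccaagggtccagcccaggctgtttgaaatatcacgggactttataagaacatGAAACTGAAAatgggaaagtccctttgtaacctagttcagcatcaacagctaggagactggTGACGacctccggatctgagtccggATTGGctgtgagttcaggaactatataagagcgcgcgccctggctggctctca
Psmb9 and Tap1 point away from each other, with 225 bases between their starts at chr17:34187331-34187555, shown on the plus strand that Tap1 reads.
Psmb9-Tap1: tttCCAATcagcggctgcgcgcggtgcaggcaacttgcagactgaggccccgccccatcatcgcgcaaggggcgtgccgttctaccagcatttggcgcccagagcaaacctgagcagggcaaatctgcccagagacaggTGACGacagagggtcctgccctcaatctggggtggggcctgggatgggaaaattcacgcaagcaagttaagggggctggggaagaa

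The upstream sequences set the 2 classical genes apart from the T-region pair. The H2-K1 and H2-D1 windows aligned over 177 positions with 161 identical, while no other pair of heavy chains aligned over more than 16 positions. The kappa-B sequence stood 111 bases before the H2-K1 start and 171 before the H2-D1 start, and in no other member. It is rare, at 10 of 32851 RefSeq windows of this length (0.0304%). The response element form was matched in H2-T22, H2-T23 and B2m, and in 2.98% of all windows. Only exact matches were counted, so a window without one may still hold a near match. The H2-K1 and H2-D1 windows both hold tttcacttct, which is near this form but was not counted. TGACG was in 6 of the 9 members and 17.8% of windows, and CCAAT in 8 of 9 and 33.8%. These member counts take the TGACG and the CCAAT of the interval shared by Psmb9 and Tap1 once for each of the 2 genes. These letters are a description of the windows and no evidence of binding. The transcribed heavy-chain genes share sequence too, and how reads fitting several of them were assigned is stated in no source at hand, so the level of each heavy chain, above all H2-T22 and H2-T23, is uncertain.

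The libraries hold 207395090, 198773992 and 180656900 gene UMIs (unique molecular identifiers, 1 for each captured RNA molecule) in the MLL::ENL; Skida1-deleted, MLL::ENL and Control library. After filters 9168, 10154 and 5510 cells remained in the same 3 libraries, at medians of 17025.5, 14685.5 and 28501 UMIs. Skida1 itself stood at 0.504 CPM (0.405 to 0.62; CPM is the gene's UMIs over all gene UMIs, times 1000000) in the Skida1-deleted library, against 4.75 CPM (4.44 to 5.08) in the MLL::ENL library and 0.226 CPM (0.159 to 0.312) in Control. The Y-linked gene Ddx3y had 57.1 CPM in the Skida1-deleted library, with 0 UMIs in MLL::ENL and Control. Xist, which silences an X chromosome in female cells, had 2.13 CPM there against 1038 CPM in MLL::ENL and 644 CPM in Control. The libraries thus differ in sex as well as genotype, and these cannot be told apart in any comparison with the Skida1-deleted library. Libraries shared 17 to 33 cell barcodes by pair, at most 0.328% of the smaller library.

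Cells were grouped without the 10 genes, any other H2 gene or interferon-response genes, by clustering each library and naming clusters from marker genes. The 6 classes described had at least 30 cells in every library, and values here are UMIs summed over a class. The largest classes were HSPC-like (haematopoietic stem and progenitor) cells, with 3017, 2025 and 1240 cells in the Skida1-deleted, MLL::ENL and Control library, and erythroid-like cells, with 3870, 3506 and 3228. The HSPC-like class includes clusters named lymphoid progenitor. Its HSPC markers summed to 1422, 1531 and 2124 CPM in the same 3 libraries (0 of 16 at 0 in each). Lymphoid progenitor markers summed to 1030, 1064 and 677 CPM (1, 0 and 0 of 11 at 0). The proliferation gene Mki67 stood at 287, 225 and 407 CPM. Without the lymphoid progenitor clusters 16 HSPC-like member ratios left their counting interval and 4 did not. The part of makeup in the HSPC-like values was not tested. Granulocyte progenitor-like, megakaryocyte-like and basophil-mast-like classes held 112 to 597 cells per library. The B-lineage-like class was small, at 99, 90 and 44 cells. Clusters that met no naming rule held 906, 3446 and 206 cells, or 9.88%, 33.9% and 3.74% of the cells kept. With these unnamed clusters counted as erythroid-like, 15 erythroid-like member ratios left their counting interval and 5 did not. Their part in the erythroid-like values was not tested. In Control alone 163 monocyte-dendritic-like cells were found. Cell classes carry the "like" ending because the names were rebuilt from markers.

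Class I presentation RNA was lowest in the Skida1-deleted library, intermediate in MLL::ENL and highest in Control, and this order held in all 6 classes. Summed over the 10 genes, HSPC-like cells held 1501 CPM (1487 to 1514) in the Skida1-deleted library, 2176 CPM (2157 to 2196) in MLL::ENL and 2739.7 CPM (2716 to 2763) in Control. Erythroid-like cells held 461, 590.4 and 812 CPM in the same 3 libraries. B-lineage-like cells held 1677, 2124 and 3181 CPM, granulocyte progenitor-like cells 1298, 1536 and 2222 CPM, megakaryocyte-like cells 1003, 1348 and 1664 CPM, and basophil-mast-like cells 1186, 1520.2 and 1726 CPM. The 3 intervals did not overlap in any of the 6 classes. Erythroid-like cells were the lowest class in each library, and the HSPC-like sum was 3.25, 3.69 and 3.37 times theirs within the 3 libraries. Other classes could differ less than libraries did. In the Skida1-deleted library the HSPC-like sum of 1501 CPM was nearer to the granulocyte progenitor-like sum of 1298 CPM than to the HSPC-like sum of Control. Control monocyte-dendritic-like cells held 2215 CPM. Depth moves with this order, since HSPC-like cells had medians of 9754, 10422 and 14130.5 UMIs per cell in the Skida1-deleted, MLL::ENL and Control library. With each cell thinned to 3000 UMIs the members past 1.5-fold in HSPC-like cells numbered the same in both main comparisons. The ratios themselves did shift. Over both comparisons, the 6 classes and all kept cells, 54 member ratios left their counting interval on thinning and 86 stayed within it. Thinning evens only the count per cell, and the part of depth in the order of libraries was not tested.

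**Figure D1:**
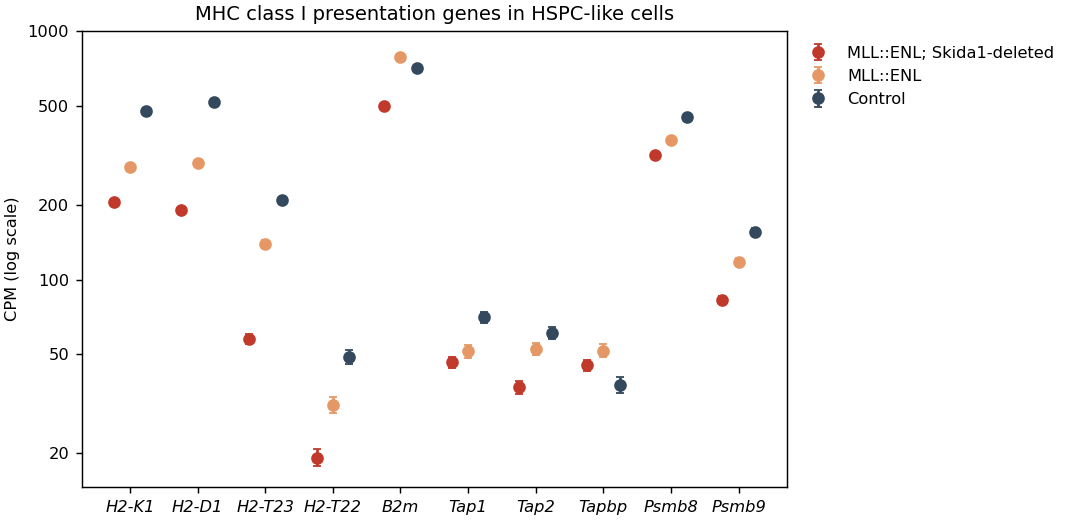
CPM of each of the 10 genes (log axis) in HSPC-like cells, 1 point per library with its 95% Poisson interval for counting error, in the order MLL::ENL; Skida1-deleted, MLL::ENL, Control. 8 of the 10 genes step up from left to right, while B2m and Tapbp are highest in MLL::ENL.

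H2-T23 showed the largest difference with Skida1 deletion. It stood at 57.8 CPM (55.2 to 60.5) in Skida1-deleted HSPC-like cells, against 139.6 CPM (135 to 145) in MLL::ENL and 209 CPM (202 to 215) in Control. That is 2.41-fold lower (2.28 to 2.56) in the Skida1-deleted library than in MLL::ENL, a log2 ratio of -1.27. Of the 9581 genes tested in these cells, that is genes with at least 5 CPM in either library and 20 UMIs over both, 10 had a lower ratio. Qa-1 RNA was lower in every class, by 2.23-fold in granulocyte progenitor-like, 1.94-fold in megakaryocyte-like, 2.44-fold in erythroid-like, 2.0-fold in basophil-mast-like and 3.0-fold (1.42 to 7.08, from 9 and 37 UMIs) in B-lineage-like cells. The erythroid-like levels were 9.34 CPM in the Skida1-deleted library, 22.8 CPM in MLL::ENL and 41.4 CPM in Control, so the 3 libraries did not overlap there either. In basophil-mast-like cells, where H2-T23 was highest within both fusion libraries, it stood at 78.8, 158 and 182 CPM in the Skida1-deleted, MLL::ENL and Control library, and only the MLL::ENL and Control intervals overlapped. That class differs in makeup: eosinophil markers summed to 1644 CPM in the Skida1-deleted library, 44.7 CPM in MLL::ENL and 69.3 CPM in Control, with 0, 1 and 3 of 9 at 0, and basophil-mast markers to 2349, 4030 and 4770 CPM, with 1, 0 and 0 of 11 at 0. The part of this in the values of the class was not tested. H2-T23 was past 1.5-fold lower in all 6 classes, as were 9 of the 4843 genes tested in all 6 (0.186%). The granulocyte progenitor-like call held in 11 of 12 other settings and was lost without doublet removal, at -0.27 (log2), so the count of 6 falls to 5 there. In the cells of unnamed clusters it stood at 20.7, 46.3 and 40.6 CPM.

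The same was seen per cell. With each cell thinned to 3000 UMIs, H2-T23 had a UMI in 17.4% (16.0 to 18.8) of Skida1-deleted HSPC-like cells, 36.0% (33.9 to 38.1) in MLL::ENL and 46.1% (43.3 to 48.9) in Control; unthinned shares were 43.2%, 74.2% and 91.9%. In erythroid-like cells the thinned shares were 2.66%, 7.79% and 11.3%. No class here is known to lack these genes, so a background share from free RNA was not measured.

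The other heavy chains were also lower with Skida1 deletion, by less. H2-D1 stood at 191 CPM (186 to 196) in Skida1-deleted HSPC-like cells and 294 CPM (287 to 301) in MLL::ENL, 1.54-fold lower. H2-K1 stood at 205 CPM (199.8 to 210) and 283 CPM (276 to 290.0) in the same libraries, 1.38-fold lower. H2-T22, at 19.2 CPM (17.7 to 20.8) and 31.2 CPM (28.9 to 33.6), was 1.63-fold lower. All 3 had ratios below 1 in each of the 6 classes, but H2-K1 reached only -0.02 (log2) in basophil-mast-like and -0.002 in B-lineage-like cells, and its sign turned in 6 of 13 and 4 of 12 other settings there and in 4 of 12 in granulocyte progenitor-like cells. The H2-T22 interval was wholly below a ratio of 1 in 3 of the 6 classes. Its sign turned in 2 of 12 settings in granulocyte progenitor-like cells and in 1 of 13 each in megakaryocyte-like and basophil-mast-like cells. The H2-D1 sign turned in 1 of 12 in B-lineage-like cells. B2m, the partner shared by every heavy chain, stood at 499.5 CPM (492 to 507) in the Skida1-deleted library and 789 CPM (778 to 801) in MLL::ENL, 1.58-fold lower (1.55 to 1.61) in HSPC-like cells. Its log2 ratio lay between -0.66 and -0.46 over the 6 classes, and its interval was wholly below a ratio of 1 in all 6.

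Peptide supply was split. Of the 2 transporter chains, Tap2 was lower with Skida1 deletion in all 6 classes, with log2 ratios of -0.94 to -0.36, and past 1.5-fold in 4: granulocyte progenitor-like, erythroid-like, basophil-mast-like and B-lineage-like. The granulocyte call held in 6 of 12 other settings, and the ratio turned to 1.88 when all variable genes were used for clustering. In erythroid-like cells it stood at 14.6 CPM (13.9 to 15.3) in the Skida1-deleted library and 23.5 CPM (22.4 to 24.5) in MLL::ENL. Tap1, its partner, had ratios between -0.32 and 0.0005 (log2), and its sign turned most often in granulocyte progenitor-like cells, in 5 of 12 other settings. Tap1 UMIs per Tap2 UMI were thus 1.42 (1.33 to 1.51) in Skida1-deleted erythroid-like cells, against 0.953 (0.895 to 1.01) in MLL::ENL and 0.928 (0.888 to 0.971) in Control. Psmb9 was lower in all 6 classes (-0.67 to -0.30). Its sign turned in 3 of 12 other settings in granulocyte progenitor-like cells and in 2 of 13 in basophil-mast-like cells. Psmb8, the other immunoproteasome subunit, ran from -0.24 to 0.25. Its top value was that of erythroid-like cells, at 65.4 CPM (63.9 to 67.0) in the Skida1-deleted library and 54.9 CPM (53.4 to 56.5) in MLL::ENL, but this direction turned in 8 of 13 other settings, which ran from -0.46 to 0.61. Tapbp had ratios from -0.61 to 0.01, the last in granulocyte progenitor-like cells, where the sign turned in 6 of 12 settings.

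In HSPC-like cells 4 of the 10 genes, H2-T23, H2-T22, B2m and H2-D1, were at least 1.5-fold lower with Skida1 deletion and 0 were higher, where 2.01% of all 9581 tested genes were lower and 1.74% higher. The median log2 ratio of the 10 was -0.51, and that of all tested genes -0.04. Tap2 (0.703) and Psmb9 (0.703) lay next outside the threshold ratio. The count stands near that threshold: it was 1 or 2 under 9 of the other settings tried, given in the closing section, whereas H2-T23 was past 1.5-fold in HSPC-like cells under all 15 settings that gave it a ratio. In the other classes 2 members were lower in granulocyte progenitor-like cells (4.26% of tested genes lower, 2.43% higher), 2 in megakaryocyte-like (3.22% and 4.14%), 2 in erythroid-like (1.1% and 1.15%), 2 in basophil-mast-like (6.52% and 6.83%) and 3 in B-lineage-like cells (11.4% and 11.9%), and 0 members were higher. The granulocyte progenitor-like classes differ in makeup: markers of mature neutrophils summed to 2388 CPM in the Skida1-deleted library, 17.9 CPM in MLL::ENL and 3.33 CPM in Control, with 0, 3 and 3 of 9 markers at 0, and the part of this in the granulocyte values was not tested.

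**Figure D2:**
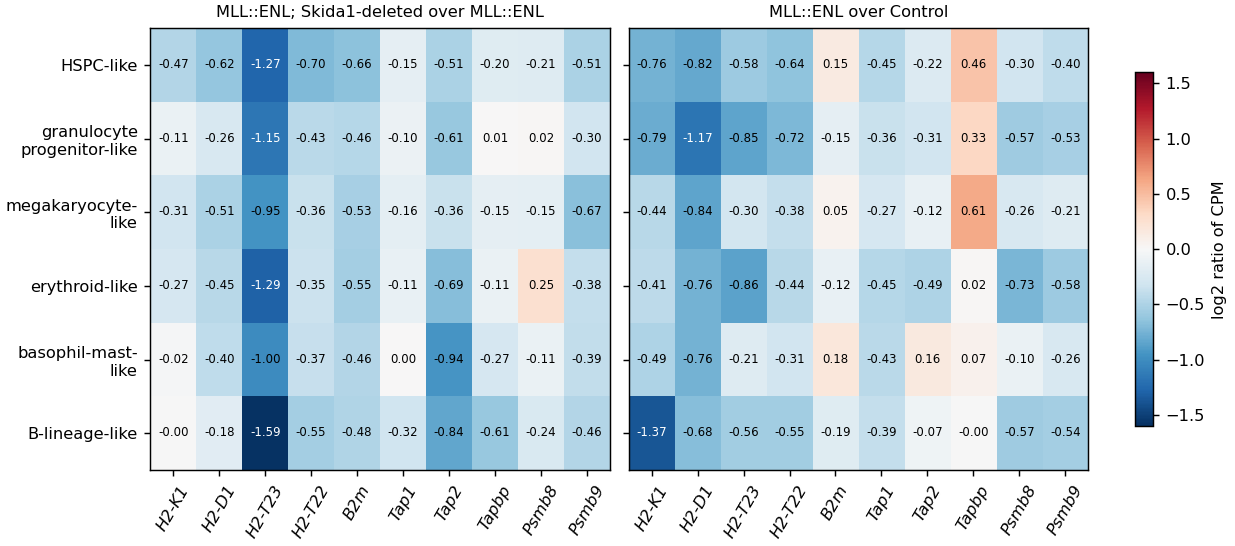
Log2 ratio of CPM of each gene in 6 cell classes, for MLL::ENL; Skida1-deleted over MLL::ENL (left) and MLL::ENL over Control (right), 1 library per group; blue is lower in the first-named library. In the left panel the H2-T23 column is the darkest, from -1.59 to -0.95, and in the right panel H2-D1 is lower in every class while B2m stays between -0.19 and 0.18.

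MLL::ENL against Control gave another pattern, in which the classical heavy chains had the lowest ratios in HSPC-like cells. H2-D1 stood at 294 CPM (287 to 301) in MLL::ENL HSPC-like cells and 517 CPM (507 to 528) in Control, 1.76-fold lower (1.71 to 1.82). H2-K1 stood at 283 CPM in MLL::ENL and 478 CPM (468 to 488) in Control, 1.69-fold lower. Both had intervals wholly below a ratio of 1 in all 6 classes. H2-D1 was past 1.5-fold lower in all 6, with the lowest ratio in granulocyte progenitor-like cells at 149 CPM in MLL::ENL and 334 CPM in Control, as were 57 of 4788 genes tested in all 6 (1.19%). The granulocyte classes are unlike: HSPC markers summed to 659 CPM in MLL::ENL and 1673 CPM in Control (1 of 16 at 0 in each), granulocyte markers to 9627 and 5163 CPM (0 and 1 of 10 at 0) and eosinophil markers to 398 and 10.9 CPM (1 and 5 of 9 at 0), and their part was not tested. H2-K1 reached that fold in 3 classes, with its lowest ratio in B-lineage-like cells at 242 CPM in MLL::ENL and 626 CPM in Control. H2-T22 had log2 ratios of -0.72 to -0.31 and H2-T23 of -0.86 to -0.21. In erythroid-like cells H2-T23 had the lowest ratio of the 10, at -0.86, with H2-D1 at -0.76 and H2-K1 at -0.41. Over 13 other settings that H2-T23 ratio ran from -0.84 to -0.39 and that of H2-D1 from -0.78 to -0.61.

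B2m did not follow its heavy chains in this comparison. It stood at 789 CPM in MLL::ENL HSPC-like cells and 711 CPM (699 to 723) in Control, and its log2 ratio was between -0.19 and 0.18 over the classes, below 0 in 3 and above 0 in 3; with median-of-ratios scaling, which raises every MLL::ENL over Control ratio by 0.04 to 0.19 (log2) depending on the class, the granulocyte progenitor-like and erythroid-like values turned above 0, as they did in 5 of 10 and 6 of 13 of all other settings. Tapbp stood at 51.8 CPM (48.8 to 54.8) in MLL::ENL HSPC-like cells against 37.6 CPM (34.9 to 40.5) in Control, and was past 1.5-fold higher in megakaryocyte-like cells alone, at 33.1 CPM (27.6 to 39.3) in MLL::ENL and 21.7 CPM (16.0 to 28.7) in Control. Tap1 had log2 ratios of -0.45 to -0.27, and Psmb9 of -0.58 to -0.21. Psmb8 stood at 54.9 CPM in MLL::ENL erythroid-like cells and 90.9 CPM (89.2 to 92.6) in Control, its lowest ratio. That ratio, -0.73 (log2), was below those of all 13 other settings, which ran from -0.66 to 0.13. It was past 1.5-fold in 5 of them. The erythroid-like Psmb9 ratio, -0.58, was likewise below its 13 other settings, which ran from -0.52 to 0.01. Tap2 ran from -0.49 to 0.16.

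In HSPC-like cells 3 of the 10 genes, H2-D1, H2-K1 and H2-T22, were at least 1.5-fold lower in MLL::ENL than in Control and 0 were higher. All tested genes gave 15.6% lower and 7.14% higher, so the count of members is not far from the background there. The median log2 ratio was -0.43 for the 10 and -0.13 for all tested genes. Members lower in the other classes numbered 4 in granulocyte progenitor-like (background 19.4%), 1 in megakaryocyte-like (19.1%; 1 was higher, background 8.74%), 3 in erythroid-like (13.8%), 1 in basophil-mast-like (20%) and 2 in B-lineage-like cells (18.2%). The erythroid-like count includes Psmb8, whose call held in 5 of 13 other settings. Both comparisons use the MLL::ENL library, once as the denominator and once as the numerator, so they are not independent. Set directly, the Skida1-deleted library over Control had 7 of 10 lower in HSPC-like cells (background 19.1%), with H2-T23 at a log2 ratio of -1.85.

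The makeup of heavy-chain UMIs differed between the libraries. Heavy-chain genes vary between mouse strains, and since the H2 haplotypes are not stated, a difference in RNA and a difference in how alleles were counted cannot be told apart here or in any heavy-chain ratio above. UMIs are counted at 3′ ends, 1 per molecule, so shares of UMIs need no length. H2-T23 gave 12.2% (11.7 to 12.8) of the UMIs of the 4 heavy-chain genes in Skida1-deleted HSPC-like cells, 18.7% (18.1 to 19.3) in MLL::ENL and 16.7% (16.2 to 17.1) in Control. Its share was lowest in the Skida1-deleted library in all 6 classes, although its interval overlapped that of Control in megakaryocyte-like, basophil-mast-like and B-lineage-like cells, and that of MLL::ENL too in B-lineage-like cells. H2-T22, its neighbour, had a share between 2.75% and 4.56% in every class and library. The classical pair shifted as well, but not alike in all classes. In erythroid-like cells H2-K1 gave 46.1% and H2-D1 45.9% in the Skida1-deleted library, 41.5% and 46.8% in MLL::ENL, and 35.8% and 51.2% in Control. In HSPC-like cells the H2-K1 share was 43.3%, 37.8% and 38.1% in the same order of libraries. In B-lineage-like cells it was highest in Control, at 33.8%, 29.1% and 40.3%. In Control the H2-D1 share exceeded the H2-K1 share in all 6 classes. In MLL::ENL it did so too, except in granulocyte progenitor-like cells, where H2-D1 gave 38.0% and H2-K1 41.5%. The largest H2-T23 share was that of MLL::ENL basophil-mast-like cells, at 30.9% (28.6 to 33.3).

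B2m UMIs per heavy-chain UMI were higher in both fusion libraries than in Control. In HSPC-like cells the ratio was 1.06 in the Skida1-deleted library and 1.06 in MLL::ENL, against 0.568 in Control. Granulocyte progenitor-like cells gave 1.07, 1.18 and 0.676 in the same order of libraries, and erythroid-like cells 0.611, 0.668 and 0.472. The Control value was lowest in all 6 classes. Psmb8 was also set against Psmb5, the constitutive proteasome subunit it replaces. This ratio differed far more between HSPC-like and erythroid-like cells than between libraries within either class. It was 1.43, 1.58 and 1.59 in HSPC-like cells and 0.222, 0.171 and 0.205 in erythroid-like cells of the Skida1-deleted, MLL::ENL and Control library.

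**Figure D3:**
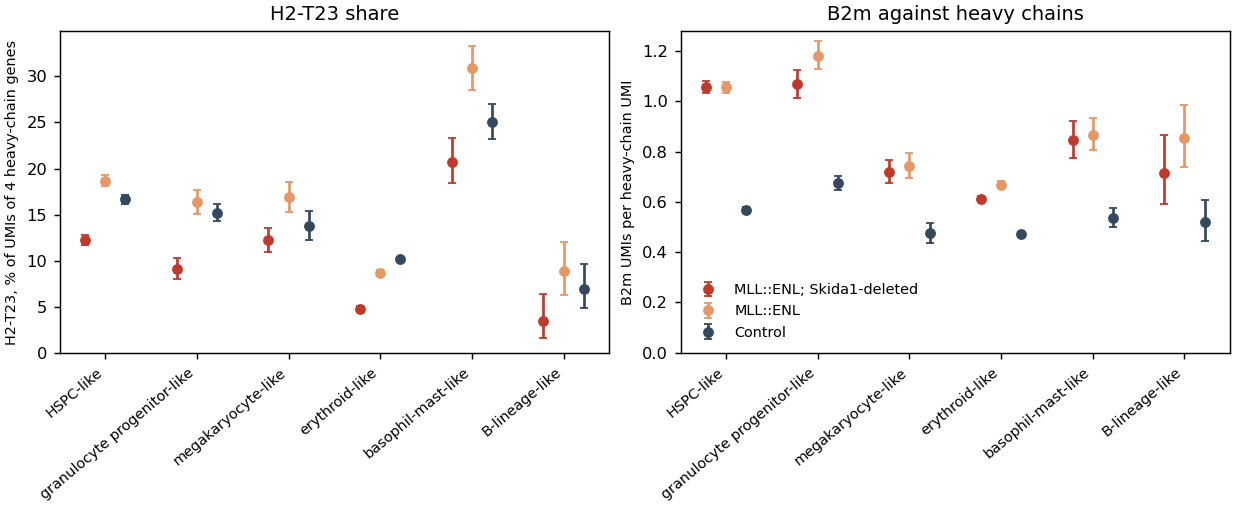
Left, H2-T23 as a percentage of the UMIs of the 4 heavy-chain genes in 6 cell classes, with exact binomial intervals; right, B2m UMIs per heavy-chain UMI, with 95% intervals. The Skida1-deleted library has the lowest H2-T23 share in every class, and Control the lowest B2m ratio in every class.

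Class I RNA was higher in cells with more surface Sca-1 within HSPC-like cells of every library. Sca-1, the product of Ly6a, marks mouse stem cells. Its antibody tag was not used to name cells, but Ly6a RNA was among the HSPC markers that named clusters. Cells were split by tag count into 4 equal bins within each library, so the bins do not match in tag count: the bottom bin ended at 31, 48 and 88 tags and the top bin began at 311, 431 and 665 in the Skida1-deleted, MLL::ENL and Control library. The libraries were not compared at equal Sca-1. From the lowest to the highest bin the 10 genes summed to 1056, 1393, 1665 and 2153 CPM in the Skida1-deleted library, 1581, 1978, 2439.6 and 3072 CPM in MLL::ENL, and 1707, 2647, 3152 and 3611 CPM in Control. B2m was 2.97-fold higher in the top than the bottom bin of the Skida1-deleted library, 2.70-fold in MLL::ENL and 2.51-fold in Control, and H2-K1 was 2.54-fold, 2.68-fold and 2.80-fold higher. H2-T23 was higher by 1.5-fold, 1.44-fold and 1.45-fold in the Skida1-deleted, MLL::ENL and Control library. It did not rise at every step in MLL::ENL, with 130 CPM in bin 1 and 115.6 CPM in bin 2. The latter, the lowest H2-T23 level of any MLL::ENL bin, was above the highest of any Skida1-deleted bin, 72.6 CPM in bin 4. Tap2 was lower in the top bin, at 0.873, 0.672 and 0.877 times its bottom-bin level, in the same order of libraries. Its fall was not steady, with 58.6, 71.4, 62.4 and 51.3 CPM from the lowest to the highest bin of Control. Psmb8 was mixed, at 1.18, 0.931 and 1.63 times its bottom-bin level in the Skida1-deleted, MLL::ENL and Control library. Depth moved with the bins, from a median of 11984 UMIs per cell in the bottom bin to 6660.0 in the top bin of the Skida1-deleted library, and its part was not tested. Makeup moved too, as RNA of Hlf, another HSPC marker, was higher in the top bin. From bottom to top it was 30.9 and 466 CPM in the Skida1-deleted library, 50.6 and 480 CPM in MLL::ENL and 10.2 and 340 CPM in Control. The part of this makeup in the bin values was not tested.

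**Figure D4:**
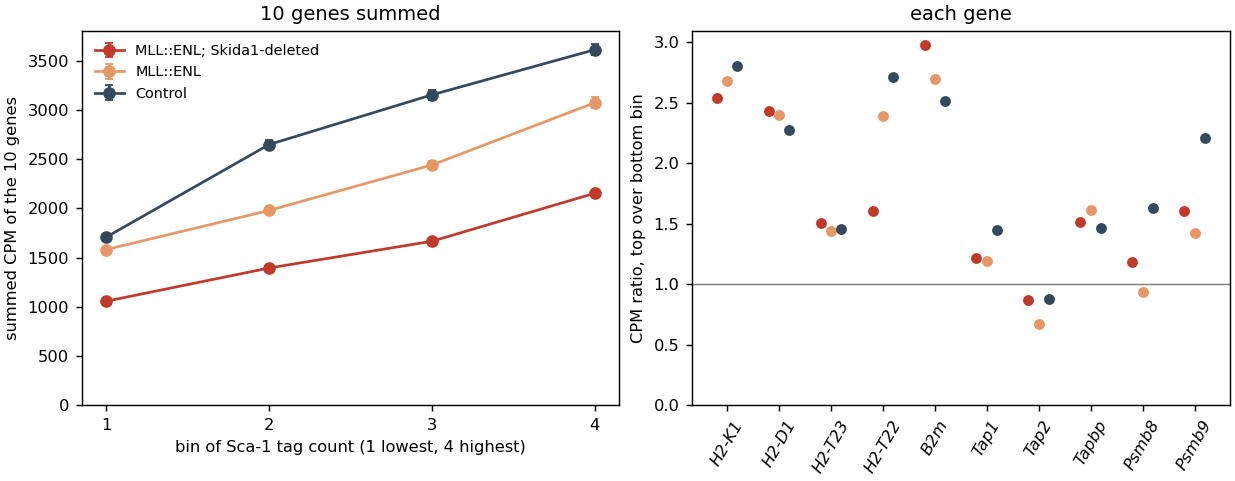
Left, summed CPM of the 10 genes in 4 equal bins of the Sca-1 antibody tag count in HSPC-like cells of each library, with 95% Poisson intervals; right, CPM in the top over the bottom bin for each gene, with a line at 1. The sums step up with the tag in all 3 libraries, and Tap2 lies below 1 in each.

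Across the 18 class-by-library sums the members did not all vary together. H2-K1 correlated with H2-D1 at 0.92 and with H2-T22 at 0.93, and H2-T23 correlated best with Tap2, at 0.92, against 0.65 with H2-K1. Tapbp correlated least, at 0.02 with H2-D1. These are descriptions over 18 points that share 3 libraries. Of 4255 other genes, those most like the members' mean were Zfp422 (0.953), Plscr3 (0.949), Tmed4 (0.949), Paxx (0.943), Tmem59 (0.927) and Slc50a1 (0.919).

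Other genes of the pathway were read from lists. All counts below are to be read against the 2.01% of all genes lower and 1.74% higher in HSPC-like cells. Of 5 further class I or class I-like heavy chains tested in HSPC-like cells 2 were at least 1.5-fold lower, H2-Q4 at 16.2 CPM in the Skida1-deleted library and 27.6 CPM in MLL::ENL and H2-M3 at 9.69 and 16.1 CPM. None of 15 other peptide-supply genes and none of 12 transcription regulators of class I passed that fold, with median log2 ratios of -0.05 and -0.08. Irf1, the interferon-regulated activator of class I genes, stood at 17.8 CPM in the Skida1-deleted library and 24.6 CPM in MLL::ENL, and Nfkb1, a kappa-B subunit, at 65.8 and 82.9 CPM. Of 31 interferon-response genes 6 were lower and 0 higher, with a median of -0.27. Among these, Irgm1, an immunity-related GTPase, was 2.01-fold lower, Ifit1 1.88-fold and Rtp4 1.55-fold, while Bst2 stood at 174 CPM in the Skida1-deleted library and 224 CPM in MLL::ENL. Cd1d1, a lipid-presenting relative, stood at 17.04 and 21.9 CPM. In other classes the list's median was nearer that of all genes, or above it: -0.05 beside -0.07 in granulocyte progenitor-like, -0.07 beside -0.01 in megakaryocyte-like, -0.08 beside -0.05 in erythroid-like, -0.04 beside -0.02 in basophil-mast-like and 0.26 beside -0.01 in B-lineage-like cells. Its counts were 2 of 26 lower and 1 higher in granulocyte progenitor-like cells (4.26% of all genes lower), 4 of 26 and 1 in megakaryocyte-like (3.22%), 2 of 16 and 0 in erythroid-like (1.1%), 6 of 26 and 1 in basophil-mast-like (6.52%) and 0 of 10 and 3 in B-lineage-like cells (11.4%). Of the MHC class II list 1 of 6 was lower in HSPC-like cells.

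Against Control, MLL::ENL HSPC-like cells had 9 of 31 interferon-response genes lower and 0 higher, where 15.6% of all genes were lower and 7.14% higher, with a median log2 ratio of -0.45 beside -0.13 for all genes. Isg15, a ubiquitin-like interferon product, stood at 27.2 CPM in MLL::ENL and 138 CPM in Control, 5.07-fold lower. Iigp1 was 2.01-fold lower, Ifit1 1.96-fold, the RNA sensor gene Ifih1 1.91-fold and Oasl2 1.85-fold. Beyond that list 2 of 5 other heavy chains, 1 of 15 peptide-supply genes and 2 of 12 regulators were lower and 0 higher, the last 2 shares close to or below the 15.6% of all genes: H2-Q4 was 1.88-fold lower, Rfxap, a subunit of the RFX complex that binds MHC promoters, 1.87-fold and Tapbpl, a peptide editor related to tapasin, 1.62-fold. In granulocyte progenitor-like cells 19 of 30 tested interferon genes were lower (19.4% of all genes), and in B-lineage-like cells 11 of 12 (18.2%). Elsewhere the list was close to all genes, with 6 of 26 lower and 3 higher in megakaryocyte-like cells (19.1% and 8.74% of all genes), 2 of 17 and 1 in erythroid-like (13.8% lower) and 4 of 27 and 4 in basophil-mast-like cells (20% lower). Of the MHC class II list 2 of 7 were lower and 1 higher in HSPC-like cells.

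Neighbouring genes on chromosome 17 were counted the same way. Between chr17:32919478 and chr17:37042742, which is the span of the members with 1 Mb on each side, 96 other genes were tested in HSPC-like cells. With Skida1 deletion 3 were at least 1.5-fold lower (Gm17251, Rnf5 and H2-Q4) and 2 higher (Rps28 and Tcf19), with a median log2 ratio of -0.02. These are 3.13% and 2.08%, against 2.01% and 1.74% of all genes. Shares lower were 3.49% in granulocyte progenitor-like (4.26% of all genes), 2.17% in megakaryocyte-like (3.22%) and 4.05% in erythroid-like cells (1.1%). They were 7.53% in basophil-mast-like (6.52%) and 5.66% in B-lineage-like cells (11.4%). In B-lineage-like cells 18.9% were higher (11.9%). In MLL::ENL over Control 16 were lower and 8 higher in HSPC-like cells, 16.7% and 8.33%, close to the 15.6% and 7.14% of all genes. In erythroid-like cells the region was lower than that, with 22 of 84 neighbours lower and 3 higher, 26.2% and 3.57% against 13.8% and 5.36% of all genes, and a median of -0.30 beside -0.14. The shares lower in the other classes were 24.7% in granulocyte progenitor-like (19.4% of all genes), 20.4% in megakaryocyte-like (19.1%), 15.6% in basophil-mast-like (20%) and 21.6% in B-lineage-like cells (18.2%).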

How the data were processed

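Raw UMI counts per gene and cell were deposited by the authors, made with Cell Ranger 6.1.2 per the file headers; the submitters' processing notes name 6.0.1 and mm10. Cells with at least 1000 UMIs, 500 genes and under 10% mitochondrial UMIs were kept, and the top Scrublet scores were removed at 0.8% per 1000 cells. Each library was clustered alone (scanpy 1.11.5, 2000 variable genes without the members, 30 components, 15 neighbours, Leiden resolution 1.0), and clusters were named from markers. A joint clustering, which left many cells unnamed, was replaced, and clusters named HSPC or lymphoid progenitor were merged, before member values were computed. Levels are UMIs summed per class over all gene UMIs of that class, as CPM, with exact Poisson intervals; ratios of CPM carry exact conditional binomial intervals. A gene was called past 1.5-fold if it had at least 5 CPM in either library and 20 UMIs over both. The procedure was tested on simulated data. Members and lists were chosen with earlier results of these data known. All members are named; from the other lists, up to 8 genes per comparison with the largest ratios at 20 CPM or more are named, plus those past the fold among 5 or fewer. Antibody tags other than Sca-1 were not used.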

Additional observations from a re-analysis of the deposited data

How the results depend on the processing

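No paired analysis was possible because each group has 1 library and no replicate numbers are shared. Over 16 other settings, which gave 1780 member ratios, 1277 stayed within the counting interval of the reported ratio and 499 left it. The sign differed from the reported one in 119, most often for Psmb8 with Skida1 deletion in erythroid-like cells (8 of 13 settings). Of ratios past 1.5-fold, 4 changed sign: H2-T23 in MLL::ENL over Control granulocyte progenitor-like cells, to 0.0789 (log2) with the automatic Scrublet threshold and 0.0136 at resolution 2.0; Tap2 with Skida1 deletion in the same class, to 1.88 with all variable genes; and Psmb8 in MLL::ENL over Control erythroid-like cells, to 0.13 with the class of the nearest Control cells. The cause was not tested. The 4 members lower with Skida1 deletion in HSPC-like cells became 1 with the strict cell filter, the automatic Scrublet threshold or a fold of 2, and 2 without doublet removal, at resolution 0.5 or 2.0, with all variable genes, with the highest marker score or in G1 cells. H2-T23 was past the fold in all 15 settings there, from -1.54 to -1.0 (log2), while H2-D1 was in 4, B2m in 7 and H2-T22 in 10. For MLL::ENL over Control the 3 lower members became 5 with the automatic Scrublet threshold or the marker score and 0 at a fold of 2, and 1 member was higher, not 0, with median-of-ratios scaling, without doublet removal or in G1 cells. H2-D1 was past 1.5-fold in all 15. All tested genes past the fold with Skida1 deletion in HSPC-like cells numbered 360 in the reported analysis, 578 without doublet removal, 554 with the automatic threshold, 680 with all variable genes, 632 after thinning, 3109 with no filter, 48 at a fold of 2 and 997 with HSPC clusters alone, an alternative added after seeing the data. For MLL::ENL over Control they numbered 2242, 5813 with no filter and 650 at a fold of 2. B-lineage-like values rest on 44 to 99 cells.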
